A study of Mus musculus with 28 samples.

Results

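The genes described here encode mitochondrial ribosomal proteins, taken as every symbol in the deposited count table that is Mrpl or Mrps followed by a number and at most 1 letter. The rule found 77 of 24391 symbols, and all 77 had enough reads to be tested in every comparison. Of these, 50 encode large-subunit proteins, 26 encode small-subunit proteins and Mrps36 was put in neither class, because its product is a component of the 2-oxoglutarate dehydrogenase complex in mitochondria rather than of the ribosome. Mrps18a and Mrps30 carry a small-subunit name but belong to the large subunit. Mrpl58, a peptidyl-tRNA hydrolase built into the large subunit, is listed under its older symbol Ict1 and so falls outside the rule.

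Mitochondrial ribosomes translate the few proteins encoded by mitochondrial DNA, all of them subunits of the respiratory chain and ATP synthase. Their RNAs are made from mitochondrial DNA, but every one of their proteins is encoded in the nucleus, translated on cytosolic ribosomes and imported. Some of these proteins have bacterial counterparts, and others were added during the evolution of mitochondria.

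The samples were motor cortex of mice labelled Cx3CR1-Cre/TRAPfl, in which Cre made under the promoter of a microglial and macrophage receptor gene switches on a tagged cytosolic ribosome. From each of 14 mice there was 1 TRAP library (translating ribosome affinity purification, the RNA held by the tagged ribosomes) and 1 total lysate library. Run mice spent 1 h on the rotarod, a rotating rod on which mice walk, and home cage mice were the baseline. There were 7 mice per condition, 3 from cohort 2 and 4 from cohort 1, and 4 of each 7 were labelled female. All mice carried the Cre and the TRAP allele, so the lysate, not a mouse without Cre, was the reference for TRAP. Cx3cr1-driven Cre is also active in macrophages at the borders of the brain.

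Library totals were 104405588 to 241381845 counts in TRAP and 70090518 to 179477632 counts in lysate, and the lowest count of any member in any library was 472. All 18 microglial markers examined were higher in TRAP than in lysate, with a median log2 difference of 6.55, and all 12 neuronal markers were lower, with a median of -1.41. All 8 border macrophage markers and all 8 endothelial markers were higher in TRAP too, with medians of 6.11 and 2.38. The labels call every library microglia, but summed neuronal markers were 9322 to 17979 CPM (counts scaled to library size) in lysate and summed microglial markers 548 to 756 CPM, so the lysate is described here as whole cortex. In TRAP the neuronal sum was 2251 to 2991 CPM in cohort 2 and 5185 to 9060 CPM in cohort 1. Each gene's departure from its mean followed its GC content with opposite sign in the cohorts, with a Spearman coefficient across genes of 0.35 to 0.60 per TRAP library of cohort 2 and -0.48 to -0.38 in cohort 1. In 2 run mice of cohort 2, Male1 and Female2, Y-linked genes went against the labelled sex in both fractions. Main counts or medians of the fraction, cohort and run comparisons are therefore also given without their 4 libraries. Other results, such as levels, named members between fractions, subunit classes, correlations between members and other gene lists, are given with all libraries.

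Set against length, the members with the highest mean over the 14 lysate libraries were Mrps18c, Mrpl33, Mrpl20, Mrpl42 and Mrpl41, and those with the lowest were Mrps5, Mrpl47, Mrpl19, Mrps35 and Mrps31. The level of Mrps18c, 1 of the 3 mammalian relatives of the bacterial S18 protein, averaged 361 ± 237 RPKM (CPM per kilobase of the principal transcript) in TRAP and 445 ± 308 RPKM in lysate (SD, n = 14 each). Its chromosome 5 gene (100798627 to 100804471, plus strand, GRCm38) had 62.8 to 74.8 CPM in TRAP of cohort 2 and 268 to 428 CPM in TRAP of cohort 1. In lysate it had 57.7 to 84.7 CPM in cohort 2 and 356 to 528 CPM in cohort 1. The cohorts did not overlap in either fraction, and the SDs of Mrps18c span this gap. Its place therefore differed: in lysate Mrps18c averaged 111 ± 16.6 RPKM in cohort 2, rank 8 of the 77 members, and 696 ± 93.3 RPKM in cohort 1, rank 1. In cohort 2 lysate the highest member was Mrpl20, at 175 ± 18.9 RPKM, and Mrpl41 stood at rank 12, against rank 5 in cohort 1. Of the exon bases of Mrps18c, 23.2% are shared with Gm43511 on the same strand, so its count is uncertain.

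Mrpl33, a small large-subunit protein with a bacterial counterpart, averaged 208 ± 72.2 RPKM in TRAP and 322 ± 180 RPKM in lysate. Mrpl42, which is mitochondria-specific, averaged 259 ± 93.7 RPKM in TRAP and 299 ± 135 RPKM in lysate. At the other end Mrps5, a small-subunit protein with a bacterial counterpart, averaged 1.95 ± 0.63 RPKM in TRAP and 3.14 ± 0.48 RPKM in lysate. The order depends on the transcript taken for length: with all annotated exons, Mrpl33 stood at rank 39 in lysate. The 77 members held 0.316% to 0.483% of all counts in each TRAP library and 0.462% to 0.798% in each lysate library.

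The first comparison set each transcript's scaled level in TRAP against its scaled level in total lysate. TRAP also held neuronal markers, as given above, so the ratio does not measure ribosome occupancy in microglia. Of the 77 members, 18 were higher in TRAP than in lysate and 33 were lower (edgeR quasi-likelihood test, Benjamini-Hochberg adjusted p under 0.05 over 16880 genes). Among all tested genes 33.8% were higher and 40.1% were lower, against 23.4% and 42.9% of the members, so the share lower was close to the background and the share higher was below it. The members' median log2 ratio was -0.13 and that of all tested genes -0.21. These counts depend on the scaling: with library totals alone the median of all genes moved to -0.72 and that of the members to -0.65, with 4 members higher and 59 lower. On that scale 3920 of 16880 genes were higher and 9568 lower. Relative to the median of all genes, 44 members lay above it under either scaling. Without the 2 run mice whose Y-linked genes go against their labels, 12 members were higher and 43 lower, beside 5361 and 6885 of 17163 genes. In both alternatives the members' share lower was above the background, unlike in the main fit. In bulk RNA, fewer cells of a type and less RNA per cell cannot be told apart.

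Mrpl52, a mitochondria-specific protein of the large subunit on chromosome 14 (54426909 to 54429756, plus strand), had the largest rise. It had 69.5, 89.1 and 135 CPM (lowest, median and highest) in TRAP, against 19.5, 32.6 and 42.1 CPM in lysate. Every TRAP library was above every lysate library, and the fold was 3.16 (log2 1.66 ± 0.11 SE, adjusted p = 5.40e-14). Mrpl23, which in bacteria lies at the exit of the peptide tunnel, had 18.0, 24.9 and 55.1 CPM in TRAP, against 9.17, 11.1 and 14.5 CPM in lysate (log2 1.20 ± 0.11, adjusted p = 2.50e-11). A processed pseudogene is identical to it over 540 bases, so its reads are uncertain. Mrps15, a small-subunit protein with a bacterial counterpart, had 55.3, 72.8 and 105 CPM in TRAP, against 24.7, 35.4 and 43.5 CPM in lysate (log2 1.18 ± 0.09, adjusted p = 1.36e-12), again without overlap. Mrpl43, a mitochondria-specific large-subunit protein, had 75.3, 91.2 and 142 CPM in TRAP, against 38.3, 48.0 and 54.4 CPM in lysate (log2 0.97 ± 0.08). Of the exon bases of Mrpl43, 33.4% lie opposite Twnk, the gene of the mitochondrial DNA helicase, so part of its count may come from there.

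Smaller rises were called for Mrpl24 (log2 0.72 ± 0.14), Mrpl17 (0.66 ± 0.11), Mrpl34 (0.60 ± 0.10), Mrps14 (0.57 ± 0.07), Mrpl4 (0.51 ± 0.10) and Mrpl36 (0.44 ± 0.07), all with bacterial counterparts. Of the exon bases of Mrpl24, 26.3% lie opposite Rrnad1, so its count is uncertain. With library totals alone, only Mrpl52, Mrpl23, Mrps15 and Mrpl43 of the 77 stayed higher, while Mrpl4 stood at -0.01 and Mrpl36 at -0.08. Counted mouse by mouse, 8 members were higher in TRAP in all 14 animals, namely Mrpl52, Mrpl23, Mrps15, Mrpl43, Mrpl34, Mrps14, Mrpl36 and Mrpl51. The share of all tested genes with the same direction in all 14 mice was not computed, so this count has no background beside it.

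Mrps22 fell furthest. This mitochondria-specific small-subunit protein, on chromosome 9 (98588730 to 98601660, minus strand), is one whose loss of function in humans causes mitochondrial disease. It had 4.40, 9.41 and 28.7 CPM in TRAP, against 11.3, 41.0 and 59.9 CPM in lysate. The ranges over all libraries overlapped, but within each mouse TRAP was lower, with log2 ratios of -2.55 to -0.64 (fit -1.52 ± 0.15, adjusted p = 1.31e-10). Mrpl53, mitochondria-specific, had 26.2, 39.6 and 76.6 CPM in TRAP, against 49.99, 95.5 and 139 CPM in lysate (log2 -1.06 ± 0.14); 88.0% of its exon bases are shared with another annotated gene on the same strand, Gm42688. Mrpl50, mitochondria-specific, had 18.9, 45.96 and 77.5 CPM in TRAP, against 33.9, 119 and 173 CPM in lysate (log2 -1.01 ± 0.11). In 13 of 14 mice Mrpl53 and Mrpl50 were each lower in TRAP.

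Further falls were called for Mrpl41 (log2 -1.0 ± 0.12), Mrps10 (-0.96 ± 0.10), Mrpl1 (-0.83 ± 0.14), Mrpl57 (-0.76 ± 0.10), Mrpl3 (-0.76 ± 0.08), Mrps27 (-0.75 ± 0.09) and Mrpl32 (-0.71 ± 0.11). Mrpl1 belongs to the stalk through which spent tRNAs leave in bacteria, Mrps27 is an RNA-binding protein of the pentatricopeptide repeat family, and Mrpl32 is cut to its mature form by the mitochondrial AAA protease before assembly. Mrpl41, Mrps10 and Mrpl32 have near-identical pseudogenes, and 24.2% of the exon bases of Mrps27 lie opposite 6430562O15Rik, so their counts are uncertain. In all 14 mice Mrpl47, Mrps36, Mrps27, Mrpl3, Mrpl57, Mrps10, Mrpl41 and Mrps22 were lower in TRAP. Here too the matching share of all tested genes was not computed.

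**Figure D1:**
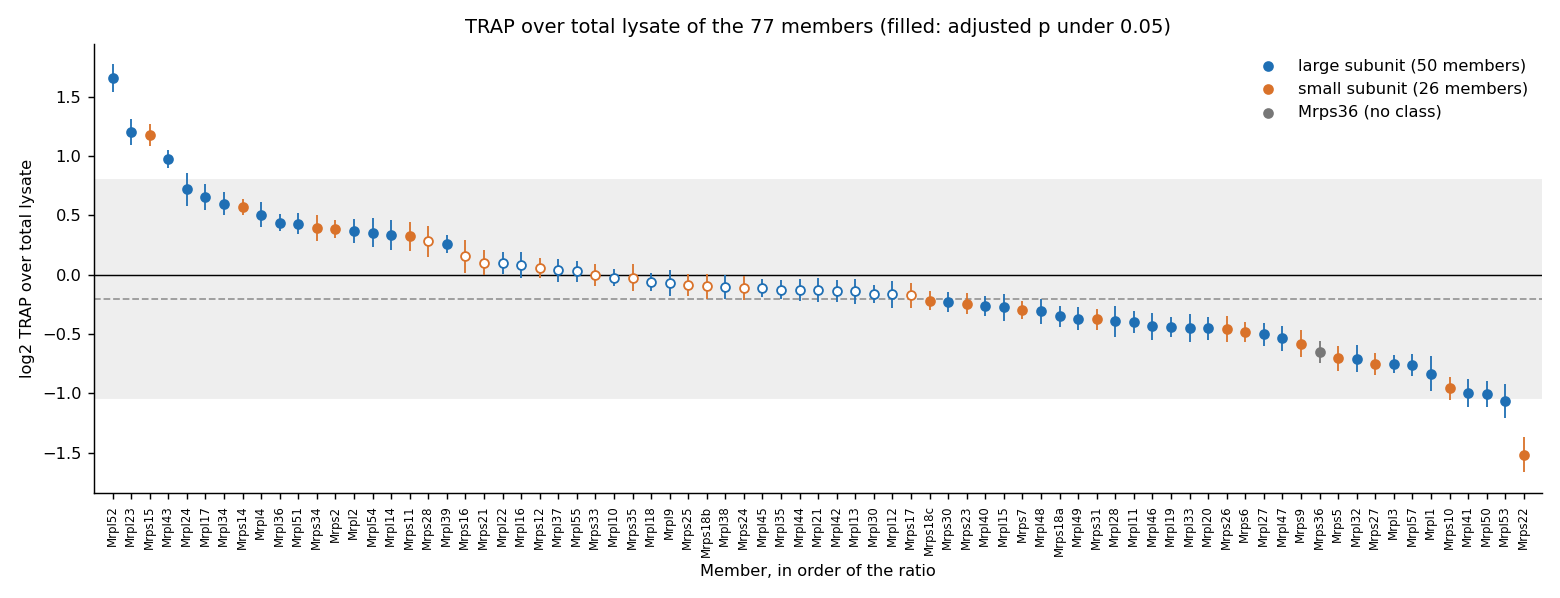
The log2 ratio of TRAP over total lysate (vertical axis) for each of the 77 members (horizontal axis, sorted), with bars of 1 SE from the edgeR fit, large subunit in blue, small subunit in orange and Mrps36 in grey. Filled points have an adjusted p under 0.05, and the grey band with its dashed line marks the quartiles and the median (-0.21) of all tested genes. Members of both subunits lie on both sides of the line, with Mrpl52 at 1.66 and Mrps22 at -1.52 at the ends.

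Both subunits held called members in both directions, as did all tested genes, of which 33.8% were higher and 40.1% lower. In the large subunit 8 of 30 proteins with a bacterial counterpart were higher in TRAP and 11 lower, and 5 of 20 mitochondria-specific proteins were higher and 10 lower. In the small subunit 4 of 16 with a bacterial counterpart were higher and 6 lower, and 1 of 10 mitochondria-specific proteins was higher and 5 lower. The 4 medians were -0.13, -0.18, -0.03 and -0.17 in that order. Among the 3 relatives of bacterial S18, which occupy different sites, Mrps18a was lower in TRAP (log2 -0.35 ± 0.09, adjusted p = 0.000869) and Mrps18c was lower (-0.22 ± 0.08, adjusted p = 0.0161), while Mrps18b did not pass the test (-0.10 ± 0.10, adjusted p = 0.389). The call for Mrps18c was lost with a GC correction. Mrps30 was lower (-0.23 ± 0.09, adjusted p = 0.0187) but stood at 0.11 with a GC correction. Mrpl12, the stalk protein to which translation factors bind in bacteria, did not pass the test (-0.17 ± 0.12, adjusted p = 0.195). Mrps36 was lower (-0.65 ± 0.09), and Ict1, outside the rule, was lower as well (-0.29 ± 0.09, adjusted p = 0.00731).

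**Figure D2:**
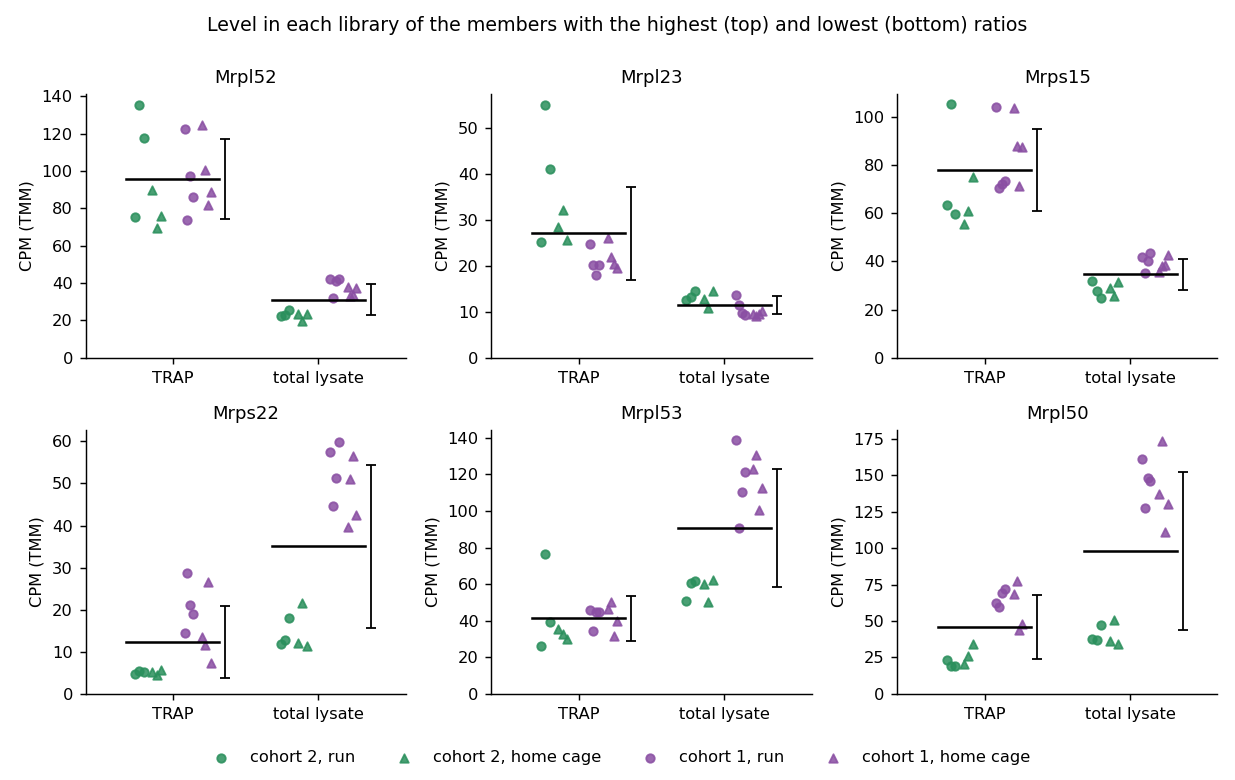
CPM in each library (vertical axis) of the 3 members with the largest rise, Mrpl52, Mrpl23 and Mrps15 (top), and the 3 with the largest fall, Mrps22, Mrpl53 and Mrpl50 (bottom), TRAP left and lysate right in each panel. Cohort 2 is green and cohort 1 purple, circles are run mice and triangles home cage mice, and bars give the mean with its SD over 14 libraries; Mrps22 in cohort 2 lies below cohort 1 in both fractions.

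The second comparison was between cohorts, which the labels call batches, and here the members' share was well above the background. The TRAP over lysate ratio was higher in cohort 2 than in cohort 1 for 33 members and lower for 1, Mrps2 (interaction of fraction and cohort, edgeR, 17612 genes). Among all tested genes 7.52% were higher and 11.4% lower, against 42.9% and 1.3% of the members. The members' median difference was 0.42 on the log2 scale and that of all genes -0.05, with 75 of 77 members above 0. Of the 6 members named by the size of their change, Mrpl15 changed by 0.95 ± 0.15 (adjusted p = 0.000103), Mrps35 by 0.93 ± 0.15 (0.000161), Mrps16 by 0.99 ± 0.19 (0.000731), Mrpl24 by 0.99 ± 0.19 (0.000767), Mrpl14 by 0.91 ± 0.18 (0.000809) and Mrps2 by -0.39 ± 0.14 (0.0492).

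For Mrpl15 the ratio differed mainly through the lysate. In TRAP it had 41.2, 44.5 and 53.8 CPM (lowest, median and highest) in cohort 2 and 51.2, 59.6 and 72.3 CPM in cohort 1, while in lysate it had 35.1, 37.5 and 42.1 CPM in cohort 2 and 79.3, 100.4 and 124 CPM in cohort 1. Both fractions were lower in cohort 2, the lysate more so. Mrpl24 differed mainly in TRAP, with 27.8, 32.7 and 57.5 CPM in cohort 2 and 12.8, 16.3 and 19.8 CPM in cohort 1, while its lysate values were 11.8 to 17.4 CPM in cohort 2 and 10.2 to 16.2 CPM in cohort 1. The medians of Mrps16 moved in opposite directions in the 2 fractions. In TRAP they were 51.7 CPM in cohort 2 and 45.8 CPM in cohort 1, and the cohorts overlapped. In lysate they were 39.3 CPM in cohort 2 and 54.0 CPM in cohort 1, without overlap. Mrps2, the exception, had 31.7 to 52.0 CPM in cohort 2 and 56.9 to 70.1 CPM in cohort 1 in TRAP, and 30.7 to 39.2 CPM in cohort 2 and 36.7 to 47.7 CPM in cohort 1 in lysate.

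The same model, fitted to both cohorts, gives the contrast within each. In cohort 2, 25 members were higher in TRAP and 12 lower, while 29.7% of all genes were higher and 34.5% lower, and the median was 0.09 over the members and -0.28 over all genes. In cohort 1, 12 were higher and 44 lower, while 30% of all genes were higher and 33.8% lower, and the median was -0.33 over the members and -0.18 over all genes. Fits to each cohort by itself called 38 members in cohort 2, beside 11861 of 17109 genes, and 58 in cohort 1, beside 10568 of 16543 genes. The members' share called was thus below the background in cohort 2 and above it in cohort 1. Per mouse, the members' median ratio was -0.03 to 0.41 in cohort 2 and -0.57 to -0.22 in cohort 1, without overlap, and 37 to 63 members were higher in TRAP in each mouse of cohort 2 against 12 to 32 in cohort 1. The share of all tested genes higher in TRAP per mouse was 43.7% to 46.9% in cohort 2 and 44.5% to 50.2% in cohort 1.

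**Figure D3:**
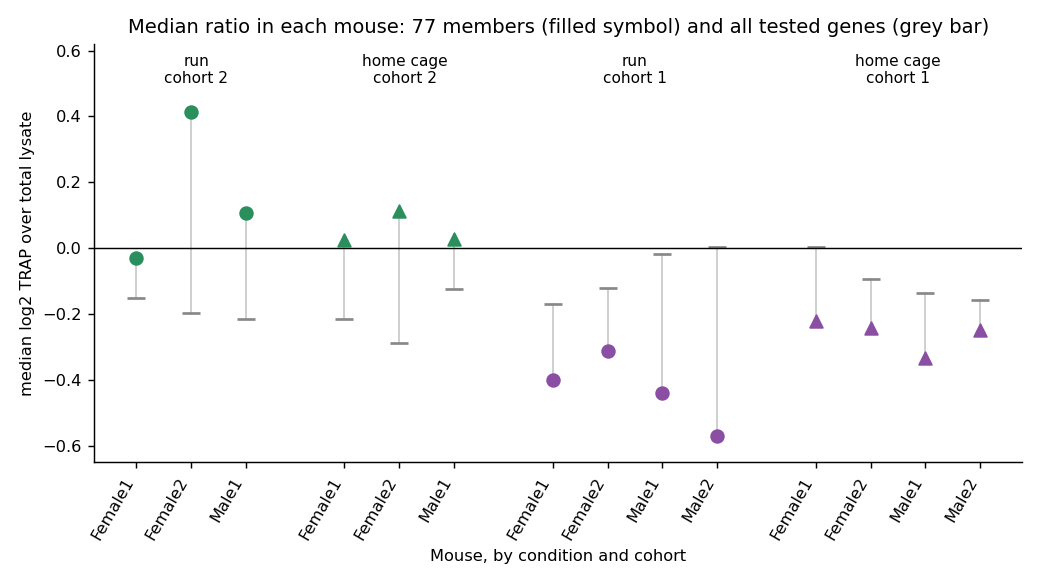
Median log2 TRAP over lysate ratio per mouse (vertical axis), over the 77 members (symbols) and over all tested genes (grey bars). Mice of cohort 2 lie at -0.03 to 0.41 and mice of cohort 1 at -0.57 to -0.22, while the grey bars lie at -0.29 to -0.12 in cohort 2 and -0.17 to 0.00 in cohort 1.

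For 17 members, among them Mrpl24, Mrps16, Mrps35, Mrpl15 and Mrpl53, every mouse of cohort 2 had a higher ratio than every mouse of cohort 1, which is 22.1% of the members against 2.77% of all tested genes; no member had the reverse, against 3.66% of all genes. By level, in lysate 41 members were lower in every cohort 2 library than in any of cohort 1 (53.2% against 20.5% of all genes) and 6 were higher (7.79% against 26.3%). In TRAP the corresponding counts were 18 lower (23.4% against 16.9%) and 16 higher (20.8% against 20.5%), near the background. The median over members of the log2 level in cohort 2 over cohort 1 was -0.46 in lysate and 0.01 in TRAP on the TMM scale. With library totals alone, each library's median log2 CPM over the members was 5.73 to 5.98 in cohort 2 and 5.96 to 6.42 in cohort 1 in lysate, and 5.17 to 5.65 in cohort 2 and 5.27 to 5.66 in cohort 1 in TRAP. On that scale the mean of these medians was lower in cohort 2 in both fractions, at 5.86 against 6.14 in lysate and 5.32 against 5.49 in TRAP. Across members this level difference followed GC content, with a Spearman coefficient of 0.65 in lysate and 0.61 in TRAP over 77 members, and of 0.74 and 0.64 over 16719 genes. These genes share the same libraries, so the coefficients are descriptions.

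**Figure D4:**
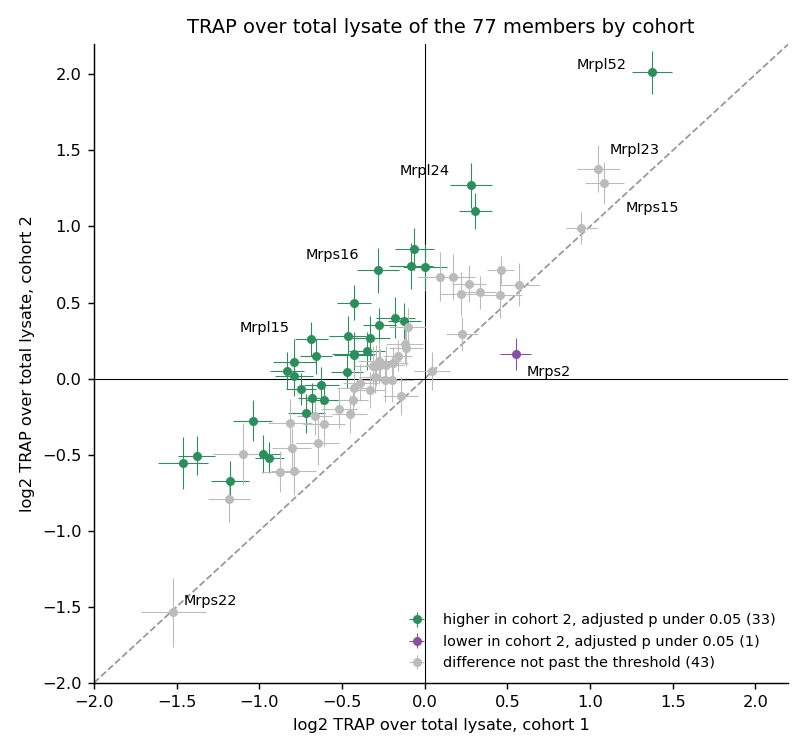
The log2 TRAP over lysate ratio of each member in cohort 2 (vertical axis) and in cohort 1 (horizontal axis), with bars of 1 SE; the diagonal marks equal ratios. The 33 members higher in cohort 2 and the 1 lower (Mrps2) are coloured, and the 43 others did not pass the test of the difference.

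Several measures moved with cohort, and their part in the difference was not tested unless a value is given here. Neuronal marker sums in TRAP were lower in cohort 2, as given above, and the difference of the mean log2 microglial and neuronal markers in TRAP was 4.20 to 4.55 in cohort 2 and 2.30 to 3.73 in cohort 1; because these ranges do not overlap, marker purity and cohort cannot be told apart here. In lysate the summed neuronal markers were 9322 to 13209 CPM in cohort 2 and 14597 to 17979 CPM in cohort 1. Endothelial markers summed to 83.2 to 101 CPM in cohort 2 and 34.5 to 70.2 CPM in cohort 1 in lysate, and to 499 to 710 CPM in cohort 2 and 155 to 321 CPM in cohort 1 in TRAP. Mural cell markers summed to 64.4 to 86.8 CPM in cohort 2 and 33.5 to 47.6 CPM in cohort 1 in lysate. None of these ranges overlapped between cohorts. With each library corrected for GC content, 35 members were higher in cohort 2 and 1 lower, beside 1618 and 2320 of 17612 genes. With library totals alone the counts were 10 higher and 1 lower, beside 355 and 4066 of 17612 genes. The median of all genes moved to -0.38, with 76 of 77 members above the median of all genes under both scalings. Without the 2 run mice whose Y-linked genes go against their labels, 7 members were higher and 0 lower, beside 245 and 1176 of 18536 genes. The members' median there still exceeded that of all genes by 0.41. Under that setting Mrpl15 and Mrps35 stayed past the threshold, while Mrps16 (0.59, adjusted p = 0.0708), Mrpl24 (0.61, adjusted p = 0.128) and Mrpl14 (0.60, adjusted p = 0.0743) did not. Leaving out 1 library at a time left 19 to 36 members called in either direction, the fewest without the TRAP library of run Female2 of cohort 2. The counts of all genes called in those fits are not given here. With the mouse as a block, 30 members were higher and 0 lower, beside 1132 and 1794 of 17612 genes, and the call for Mrps2 was lost.

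The third comparison asked whether 1 h on the rotarod changed any member, and edgeR called no member in either fraction. On simulated counts these fits recovered 18% of 1.5-fold changes in TRAP and 42% in lysate, so small changes could be missed. The changed genes were drawn at random from all genes tested, and recovery for genes with the members' levels and spread was not computed. In TRAP 0 of 77 members were called, against 0.0384% of all tested genes, and 1 member had an unadjusted p under 0.05; DESeq2 and limma-voom also called 0. That member was Mrps7, a small-subunit protein with a bacterial counterpart, with 53.9, 61.9 and 93.3 CPM in run mice, against 48.5, 55.6 and 60.8 CPM in home cage mice (edgeR log2 0.26 ± 0.11, adjusted p = 0.999). The groups overlapped. Next by p were Mrps6 at 0.22 ± 0.12 and Mrps18a at 0.20 ± 0.14, and, below 0, Mrpl3 at -0.19 ± 0.11, Mrpl45 at -0.11 ± 0.13 and Mrpl19 at -0.10 ± 0.12.

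The median log2 run over home cage change in TRAP was 0.06 over the members and 0.00 over all genes, with 60 of 77 members above 0. In cohort 2 the median was 0.24 with 64 members above 0, while in cohort 1 it was -0.06 with 23 members above 0. The sign over both cohorts rested on 1 library: without the TRAP library of run Female2 of cohort 2 the median was -0.03, with 28 members above 0. Without the 2 run mice named above it was -0.06, with 19 members above 0. The difference of the run change between cohorts in TRAP called 0 members with edgeR (0% of all 16289 genes), with 4 at an unadjusted p under 0.05, and 0 members with DESeq2 or limma-voom. Its median over members was 0.32 with both mice and -0.01 without them; leaving out the TRAP library of run Female2 of cohort 2 alone gave 0.05. The 3 members with the smallest p above 0 were Mrps21 (0.69), Mrps25 (0.54) and Mrps26 (0.67), and below 0 they were Mrpl50 (-0.58), Mrpl1 (-0.46) and Mrps22 (-0.50).

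In lysate 0 of 77 members were called for the run, against 0.0303% of all tested genes, with 1 member at an unadjusted p under 0.05 and 0 called by DESeq2 or limma-voom. Mrpl45, a large-subunit protein that in mammals helps to hold the ribosome at the inner membrane, had 33.8, 42.8 and 47.1 CPM in run mice, against 30.5, 33.9 and 44.0 CPM in home cage mice (edgeR log2 0.22 ± 0.08, adjusted p = 0.575). These ranges overlapped as well. Mrps18b stood at 0.21 ± 0.10 and Mrps6 at 0.18 ± 0.09, and on the lower side Mrpl1 stood at -0.20 ± 0.14, Mrps2 at -0.10 ± 0.08 and Mrpl57 at -0.09 ± 0.09. The median over members was 0.10, with 71 of 77 above 0, against 0.00 over all genes. It was 0.08 in cohort 2 and 0.13 in cohort 1, and 0.10 without the 2 run mice, while no single member passed. The members are correlated across libraries, so 71 of 77 are not separate results. Each cohort 1 lysate's median log2 CPM over the members was 5.76 to 6.24 in run mice and 5.83 to 5.96 in home cage mice, with overlap. In cohort 2 it was 5.53 to 5.60 in run mice, which include the 2 named above, and 5.40 to 5.49 in home cage mice. The run change in lysate did not differ between cohorts for any member with edgeR (0% of 17101 genes, 0 at an unadjusted p under 0.05), DESeq2 or limma-voom, and the members with the smallest p were Mrpl20 at 0.23 above 0 and Mrpl35 at -0.26 below 0.

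The difference of the run change between TRAP and lysate also called 0 members with edgeR (0% of 16880 genes), DESeq2 or limma-voom, with 1 at an unadjusted p under 0.05 in edgeR. That member was again Mrpl45, at -0.33 ± 0.15 (edgeR, adjusted p = 1), above 0 in lysate and below 0 in TRAP. Mrps7 stood at 0.18 ± 0.15, Mrpl53 at 0.28 ± 0.28 and Mrpl3 at -0.22 ± 0.15. The median over members was -0.01 with all mice, but it was 0.10 in cohort 2 alone, with 57 of 77 members above 0, and -0.19 in cohort 1 alone, with 9 above 0. Without the TRAP library of run Female2 of cohort 2 it was -0.15, with 6 above 0. Without the 2 run mice it was -0.23, with 5 of 77 members above 0 and 12 at an unadjusted p under 0.05, none of them called.

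**Figure D5:**
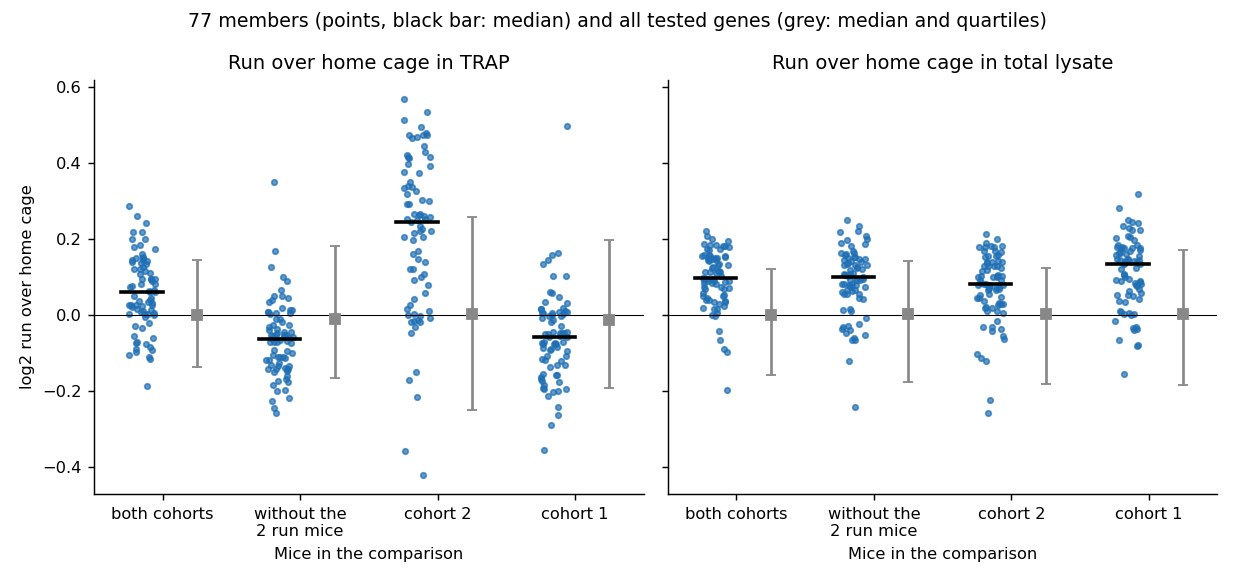
Log2 run over home cage change (vertical axis) of each member as a point, in TRAP (left) and lysate (right), for both cohorts, without the 2 run mice whose Y-linked genes go against their labels, for cohort 2 and for cohort 1; grey marks the median and quartiles of all tested genes. In TRAP the members' median is 0.24 in cohort 2 and -0.06 in cohort 1, and in lysate it is 0.08 and 0.13.

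The members varied together from library to library. After fraction, condition and cohort were fitted, the mean pairwise correlation of the members' residuals over 14 libraries was 0.40 in TRAP, where it was 0.0067 over all tested genes, and 0.27 in lysate, where it was 0.0047 over all tested genes. Their median residual SD on the log2 scale was 0.26 in TRAP and 0.17 in lysate, against 0.40 and 0.30 for all tested genes. Scaling each library to the bulk of its genes holds the mean over all genes near 0, so that value is a weak background. In the TRAP library of run Female2 of cohort 2 the members' median log2 CPM was 6.13. The other TRAP libraries of that cohort had 5.48 to 5.75, and the correlation without this library was not computed. Shared library features such as GC content enter these correlations, and their part in them was not tested.

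The promoters of the members carry motifs in common. Promoter windows of 300 bases, 250 before and 50 after the start (RefSeq, GRCm38.p6), were found for 68 of 77 members and searched on both strands for the binding motifs of NRF1, ETS factors such as GABPA (CCGGAAG), YY1 (AAGATGGC) and Sp1 (GGGCGG). NRF1 and GABPA are known regulators of nuclear genes for mitochondrial proteins. An ETS match was present in 24 of 68 members (35.3%) and in 15.2% of the 12630 tested genes with a window. An NRF1 match was present in 13 members (19.1%) and 8.84% of tested genes, and a YY1 match in 12 members (17.6%) and 4.01% of tested genes. At least 1 of these 3 was present in 41 members (60.3%) and in 25.1% of tested genes. Sp1 went the other way, in 34 members (50%) and 59.8% of tested genes. ETS and Sp1 matches overlapped in 2 members, and no other pair of motifs overlapped. A match describes letters in a window, not occupancy.

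The bases before the RefSeq start are printed for the member with the largest rise in TRAP, the one with the largest fall, a called member with an NRF1 match and a pair of members that share a promoter, 5′ to 3′ on the strand given, with matches of NRF1, ETS or YY1 in capitals.
Mrpl52, chr14:54426809-54426908, plus strand, an ETS match read on the other strand: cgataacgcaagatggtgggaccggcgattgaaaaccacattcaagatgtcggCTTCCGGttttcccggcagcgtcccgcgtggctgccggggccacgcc
Mrps22, chr9:98601680-98601779, minus strand, an ETS match: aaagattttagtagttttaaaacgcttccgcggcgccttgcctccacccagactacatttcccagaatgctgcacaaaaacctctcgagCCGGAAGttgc
Mrpl17, chr7:105811088-105811187, minus strand, an NRF1 match: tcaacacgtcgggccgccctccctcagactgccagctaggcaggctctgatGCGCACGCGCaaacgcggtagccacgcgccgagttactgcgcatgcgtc
Mrpl46 and Mrps11, chr7:78783090-78783130, plus strand, the bases between their starts, with none of these 3 motifs but with the Sp1 letters: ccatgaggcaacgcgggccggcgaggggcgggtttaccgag
The NRF1 match of Mrpl17, like the ETS match of Mrpl52, is read on the other strand. Mrpl52 and Mrps22, at opposite ends of the TRAP over lysate ratios, both have an ETS match within 100 bases of the start.

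Many members lie head to head with another gene. In GENCODE M21, 33 of 77 members (42.86%) had a protein-coding neighbour on the opposite strand that starts within 1000 bases, against 2273 of 20498 protein-coding symbols (11.09%). Mrpl46, of the large subunit, and Mrps11, of the small subunit, are such a pair and share the stretch printed above. Mrpl46 was lower in TRAP than in lysate (log2 -0.44 ± 0.12, adjusted p = 0.00119) and Mrps11 was higher (0.32 ± 0.12, adjusted p = 0.0190). Both had a higher ratio in cohort 2 than in cohort 1, by 0.81 for Mrpl46 and 0.73 for Mrps11. The pair also shares 173 exon bases on opposite strands, and whether the counting used strand is not given in the sources used here. In all, 32 members share exon bases with another gene and 19 have a stretch of at least 200 bases that is at least 95% identical to a processed pseudogene, so the counts of these members are uncertain. Named members with such a pseudogene include Mrps16, Mrps5, Mrps36, Mrpl42 and Mrps18b.

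Other genes of mitochondrial translation and biogenesis also included called genes in both directions, except the ribosomal proteins with other names. Among all tested genes 33.8% were higher in TRAP and 40.1% lower, and several of these short lists lay near those shares. Among 16 translation factors 4 were higher in TRAP and 8 lower, among them Oxa1l, which inserts new proteins into the inner membrane (log2 1.02), Guf1 (-1.16) and Gfm1, an elongation factor (-1.05). Among 24 assembly factors 7 were higher and 11 lower, with Mpv17l2 at 1.07 and Fastkd2 at -1.41. Of 17 mitochondrial aminoacyl-tRNA synthetases, which charge the mitochondrial tRNAs, 2 were higher and 9 lower, with Lars2 at 2.19 and Nars2 at -1.24. Of 5 ribosomal proteins that carry other names 3 were lower, Ptcd3 (-1.97), Chchd1 (-0.67) and Dap3 (-0.56), and 0 higher. Of 12 regulators of mitochondrial biogenesis 5 were higher, among them Myc (2.09) and Nrf1 (1.25), and 4 were lower, among them the coactivator Ppargc1a (-0.94). Of 15 markers of mitochondrial mass 3 were higher and 8 lower, with the import proteins Tomm70a at -1.21 and Tomm20 at -0.71.

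Between cohorts, members of these lists that passed the test were mostly higher in cohort 2, while 7.52% of all tested genes were higher and 11.4% lower. The ratio was higher in cohort 2 for 6 of 24 assembly factors, among them Fastkd2 (0.92) and Malsu1 (0.86), and lower for 0. It was higher for 2 of 16 translation factors (Mtfmt 0.79 and Mtif3 0.65), 2 of 17 synthetases (Pars2 1.03 and Tars2 0.63) and 1 of the 5 ribosomal proteins with other names (Chchd1 0.87), with 0 lower in each of these lists. Of the 15 mass markers 3 were higher (Timm23 0.96, Phb 0.52 and Tomm22 0.50) and Tomm20 was lower (-0.44). Of the 12 regulators Myc was higher (0.91) and Ppargc1a lower (-1.18). Ict1 was higher in cohort 2 by 0.49 (adjusted p = 0.0305). The run called 0 genes of all these lists in either fraction, against 0.0384% of all tested genes in TRAP and 0.0303% in lysate.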

How the data were processed

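The authors deposited whole-number read counts per gene for 28 libraries, with STAR 2.7.7a, featureCounts, DESeq2 and GRCm38 listed in the submitters' processing notes; per the labels' protocols the RNA was polyA and the libraries were Nextera XT. No source used here gives the annotation, the strand setting or how multimapping reads were treated. Mitochondrially encoded genes are not analysed here. Column names without a cohort mark were taken as cohort 1.

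Counts were scaled by TMM, filtered with filterByExpr and tested in edgeR 4.0.16 (quasi-likelihood, Benjamini-Hochberg threshold 0.05 over all genes tested). The SE is the log2 change divided by the square root of F. Cohort was a covariate, or interacted with fraction or condition. DESeq2 1.42.0 and limma 3.58.1 in R 4.3.3, other scalings and filters, sex, GC content, cohorts alone and leaving out each library were alternatives. Medians per mouse used log2 of counts with 0.5 added. The fits were tested on simulated counts with known changes in genes drawn at random from all those tested, not from the members. For the run, 18% of 1.5-fold and 64% of 2-fold changes were recovered in TRAP, and 42% and 74% in lysate. For the run change in TRAP minus lysate these were 6.12% and 34%. For the cohort difference of the run change in TRAP, 0% of 2-fold and 28.6% of 3-fold changes were recovered. The 0 calls for the run therefore do not mean that small changes were absent. RPKM used the principal transcript of GENCODE M21, and copies were sought with BLAST+ 2.17.0. Mice are separate animals; TRAP and lysate of a mouse are paired by the titles, although their deviations correlated at only -0.02 to 0.08, and the mouse block is given where it changes a call. Every library held at least 70090518 counts.

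The members, gene lists and tests were chosen with earlier results of these data known. Named genes are the 10 largest called rises and falls between fractions, the 5 largest in each direction of the cohort difference, the 3 smallest p in each direction where none was called, the 5 highest and lowest levels, the Mrps18 paralogs, Mrpl58, Mrps36, Mrpl12 and Mrps30, and up to 3 called genes per other list. Mrpl47, Mrpl51, Mrpl46 and Mrps11 were named after their values were seen.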

Additional observations from a re-analysis of the deposited data

Results flagged for a closer look

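The TRAP over lysate ratio differed between cohorts for 34 members, 33 of them higher in cohort 2, by a test of the difference itself in edgeR. Among all tested genes 7.52% were higher and 11.4% lower, against 42.9% and 1.3% of the members. The named ones are Mrps16 and Mrpl24 (log2 0.99 each), Mrpl15 (0.95), Mrps35 (0.93), Mrpl14 (0.91) and Mrps2 (-0.39).

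Of 56 groups of libraries or mice checked for a value far from the rest, 5 held one. Chance gives about 1 in 20 for separate groups without batches. Groups by condition pooled both cohorts, and groups shared libraries, so that rate need not hold here. The mouse run Female2 of cohort 2 had the highest median log2 ratio over the members, 0.41, with the next mouse of that cohort at 0.11. Its TRAP library also had the highest Mrps16 (113 CPM, next 68.4) and the highest Mrpl53 (76.6 CPM, next 45.9) among run mice. This mouse is 1 of the 2 whose Y-linked genes go against the label. Among the TRAP libraries of home cage mice, Mrps22 was highest in Male1 of cohort 1 (26.6 CPM, next 13.6). Among the lysates of home cage mice, Mrps7 was lowest in Female2 of cohort 2 (60.4 CPM, next 72.4).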

How the results depend on the processing

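The count of members called between fractions, 51, was 38 (cohort 2 alone) to 63 (library totals alone) under the other settings, and 51 to 61 with 1 library left out. The genes called were 12470 of 16880 in the main fit, 11861 of 17109 in cohort 2 alone and 13488 of 16880 with library totals. The 0 calls for the run held under every setting and every library left out. The cohort difference called 34 members, beside 3333 of 17612 genes. It was 11 with library totals alone, beside 4421 of 17612 genes, and 7 without the 2 run mice, beside 1421 of 18536 genes. This count of members was 19 to 36 with 1 library left out. It moved by over 1.5 times without the TRAP libraries of home cage Female1 (20), run Male1 (21) and run Female2 (19) of cohort 2. It also did so without the lysates of home cage Female2 of cohort 2 (22) and of cohort 1 (21). The cause was not tested. The counts of all genes called with 1 library left out are not given here, so these member counts have no background beside them. Without that TRAP library of home cage Female1 the members' median cohort difference exceeded that of all genes by 0.48, against 0.47 in the main fit. DESeq2 called 50 members and RLE scaling 41, beside 3975 and 3347 of 17612 genes.

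With the mouse as a replicate block 50 members were called between fractions and 30 between cohorts, beside 12684 of 16880 and 2926 of 17612 genes. Run and home cage mice share only a number; with that number as a replicate block 0 members were called.

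Signs turned for Mrpl4 (-0.013) and Mrpl36 (-0.077) with library totals. They turned for Mrps18b (0.12) and Mrpl12 (0.17) in cohort 2 alone and for Mrps18b in home cage libraries alone (0.0014). With a GC correction, with or without the block, Mrps30 between fractions stood at 0.11. Mrpl57 for the run in lysate stood at 0.036 with the GC correction and 0.039 with the block added. For the run in TRAP, Mrps18a stood at -0.0094 in cohort 1 alone and Mrpl45 at 0.0058 in cohort 2 alone. For the run change in TRAP minus lysate, Mrpl53 stood at -0.16 without the 2 run mice and -0.034 without the TRAP library of run Female2 of cohort 2 (highest 0.37 with any 1 library left out), and Mrpl57 at -0.077 without the 2 run mice and -0.022 in cohort 1 alone. With other settings 737 values of named members kept direction and call and 26 lost the call; the cause was not tested. Cohort 2 has 3 mice per condition, which limits the cohort differences of the run change.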
